A study of Mus musculus with 2 samples.

Results

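The genes described here are 7 mouse genes, Dmpk, Six5, Htt, Atxn7, Atxn2, Atn1 and Jph3, named because the human counterparts carry, or in the case of Six5 lie directly beside, a triplet repeat whose expansion causes disease. They were chosen by name, as 7 of 21627 protein-coding genes of the RefSeq table on the autosomes and X. The rule for membership uses no measured value, although the list was drawn up with earlier results of these data known. Binding of CTCF, a DNA-binding zinc-finger protein found at insulators and at the feet of chromatin loops, had been measured by chromatin immunoprecipitation and sequencing (ChIP-seq). The cells were E14TG2a.4, a male embryonic stem cell line from 129/Ola mice with a labelled age of 3.5 day, grown as 1 line, untreated as far as the labels say, and both libraries carry that same genotype. Replicates 1 and 2, labelled biological replicates from separate biosamples of the line, were the 2 libraries and formed 1 group, so there was no second condition and no test between groups was possible. Values below are therefore counts, distances and signals, with the spread (SD) over the 2 replicates.

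Triplet repeat diseases arise when a short run of CAG or CTG units lengthens beyond a threshold. In the coding glutamine repeats of HTT (Huntington disease), ATXN2, ATXN7 (spinocerebellar ataxias) and ATN1 (dentatorubral-pallidoluysian atrophy), the protein gains a long glutamine tract. In DMPK (myotonic dystrophy) the CTG run is in the 3′ untranslated region (UTR), just upstream of the neighbouring homeobox gene SIX5, and the transcript itself is toxic. In JPH3 (Huntington disease-like disease) the repeat is in an alternatively spliced exon. CTCF sites are known beside the human repeats of DMPK and ATXN7, where the protein has been studied as a boundary and as a regulator of antisense transcription. No expanded allele is part of this study.

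The longest runs found in 4 of the mouse genes are shown first, since the distances to peaks on mm9 were measured from them. They were read from the mm9 reference genome (strain C57BL/6J, whereas the cells are 129/Ola) in the GENCODE vM1 transcript with the longest coding sequence. The repeat is in capitals, the flanking bases of the spliced transcript are in lower case, and each is written 5′ to 3′ on the transcribed strand.
Htt, exon 1, chr5:35104607-35104627, plus strand: tttCAGCAGCAACAGCAGCAGCAGcca
Atxn7, exon 2, chr14:14845670-14845684, plus strand: cggCAGCAGCAGCAGCAGcca
Atn1, exon 5, chr6:124696838-124696846, minus strand: cacCAGCAGCAGcca
Dmpk, exon 15 (3′ UTR), chr7:19678700-19678705, plus strand: ccaccgCTGCTGcagcag
Htt encoded 7 glutamines from residue 18 of 3120, and Atxn7 encoded 5 from residue 25 of 867. The longest glutamine run of Atn1 was 3 residues, from residue 481 of 1175. The 722 bp of the Dmpk 3′ UTR held 22 CTG runs, counting single triplets as runs. The longest, shown above, was the only one of 2 units. Whether it stands at the place of the human repeat was not tested. In Atxn2 the longest glutamine run was 3 residues in exon 22 of 25 (chr5:122260955-122260963), whereas exon 1, which holds the human repeat, encoded 3 isolated glutamines among 213 codons. In the annotated exons of Jph3 no CTG or CAG run exceeded 2 units, and the one nearest to the gene start is in coding exon 2 (chr8:124277139-124277144). For Six5 the Dmpk run was used.

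The best motif matches inside some of the CTCF peaks can be shown beside them. CTCF recognises a motif whose most frequent bases, learned here from the peaks themselves, were GCCACCAGAGGGCGCTA. The best match in 1 peak at each of 5 genes is given next, with the 17 bases of the match in capitals and 6 bases of mm9 on each side in lower case, on the strand of the match. They were chosen because they are the peaks nearest to the longest runs of Dmpk, Htt, Atxn2 and Atn1, and the strongest peak of Jph3. For Atxn2 this is the run in exon 22, and another peak is nearest to exon 1.
Dmpk 3′ UTR, chr7:19678620-19678636, minus strand: tccccgGCCGCCAGGTGGCAGGCctggat
Htt intron 8, chr5:35148865-35148881, plus strand: ctctgtGCCAGAAGAGGGCATCAgatccc
Atxn2, after the last exon, chr5:122265278-122265294, plus strand: tgtgttACCAGTAGGGGGCAGAAgctcct
Atn1 intron 6, chr6:124695581-124695597, plus strand: ctcccgTCCACCAGGTGGCGGAGcgaccg
Jph3 intron 1, chr8:124275516-124275532, minus strand: tcaggaGCCAGAAGAGGGCAGCAgatccc
The fit to the motif is given in bits. Of short flanking windows (100 bp to each side of their centre), 1% reached 18.5 bits and 5% reached 9.64 bits. The peaks are longer, and of flanking windows as long as the peaks 5.13% and 22.9% reached these scores. The Jph3 match scored 22.96 bits, the Htt match 21.8 bits, the Atxn2 match 19.7 bits, the Atn1 match 17.2 bits and the Dmpk 3′ UTR match 13.97 bits. Its distance from the peak's midpoint was 455 bp at Jph3, 181 bp at Atn1, 47 bp at Dmpk, 45 bp at Atxn2 and 22 bp at Htt. At Atxn7, not shown, the best match in the peak nearest to the repeat scored 6.96 bits. A match describes the letters and is not itself evidence of a site.

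On the mm10 build, the peaks analysed were the 43344 conservative peaks on the autosomes and X, the set that the authors kept as reproducible by IDR (irreproducible discovery rate, which compares the ranks of peaks between replicates). Each peak had a signal from the authors' caller, on a scale that is not stated, with a median of 77.2 in this set. All 7 genes had at least 1 conservative summit inside the gene span plus 20 kb on each side, as did 75.9% of all coding genes. Inside the gene span itself a summit was found for 5 of 7, against 42.3% of all coding genes, and Atn1 and Six5 were the 2 without one. With only the peaks at or above the median signal of the conservative set, the count inside the span was 4 of 7, and 28.2% over all genes, with Htt no longer among them. These shares take no account of gene length, and a longer span has more room for a summit. The spans of Htt, Atxn7, Atxn2, Jph3 and Dmpk were 150.8, 146.0, 103.3, 60.5 and 10.2 kb. Those of Atn1 and Six5 were 13.9 and 4.01 kb. With so few genes, of unlike length, these shares describe the group and do not set it apart.

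The windows held 31 peak entries, which were 28 distinct peaks because the windows of Dmpk and Six5 share 3. Of the 28, 13 were inside the span of a member, 9 were inside another coding gene only, and 6 were outside coding genes. Their median signal was 96.1 (quartiles 51.3 and 134), and 17 were in the upper part of the conservative set, split at its median. Peak density ordered the genes as Dmpk (11.96 per 100 kb of window, 6 peaks), Six5 (9.09, 4 peaks), Jph3 (4.97, 5 peaks), Atn1 (3.71, 2 peaks), Atxn7 (3.23, 6 peaks), Atxn2 (2.79, 4 peaks) and Htt (2.10, 4 peaks). The median of all coding genes was 2.44 per 100 kb. Dmpk was above 97.6% of coding genes on this measure and Htt above 42.8%. Windows of short genes consist mostly of the flanks, so the densities of Dmpk, Six5 and Atn1 are largely those of the neighbourhood.

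Dmpk encodes a serine/threonine kinase of muscle and heart, and Six5 encodes a homeobox transcription factor. A conservative peak at the 3′ end of Dmpk (chr7:19093160-19093475 on mm10) had its summit 503 bp before the end of the gene and 1226 bp before the start of Six5. Its pooled signal was 69.5, at percentile 45.2 of the conservative set. The signal was 33.1 in replicate 1 and 36.4 in replicate 2. As relative signals, meaning the signal over the median of conservative peaks in that replicate, these were 0.795 and 0.940, with a mean of 0.868 ± 0.103 (SD, n = 2). This peak was thus of about median strength in both replicates.

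On mm9, where exons and sequence could be read, the same end of the gene carried a pooled peak at chr7:19678217-19679134. The mm9 lists give a fold enrichment, a ratio on the authors' scale. The peak's fold enrichment was 10.4 in the pooled list, 10.03 in replicate 1 and 12.3 in replicate 2. Its midpoint was 27 bp upstream of the CTG run, 47 bp upstream in replicate 1 and 43 bp upstream in replicate 2. This short run was thus inside the peak in the pooled list and close to its centre in each replicate. The peak was 918 bp wide and covered much of the 722 bp UTR. It held 1 motif match at the 5% score, which 22.9% of flanking windows as long as the peaks also reached, and none at the 1% score. The match, printed above, was in the UTR, 74 bp upstream of the run.

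**Figure D1:**
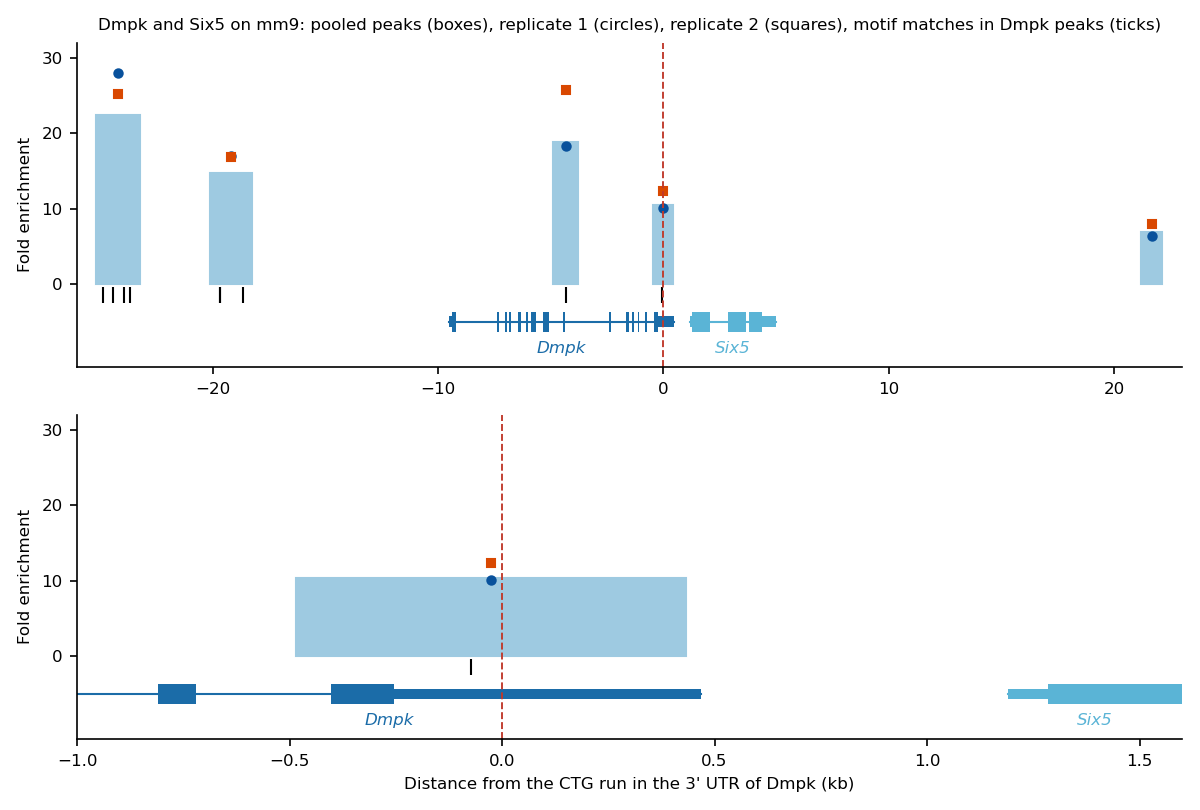
CTCF peaks around Dmpk and Six5 on mm9, with distance from the CTG run (kb) on the x axis and fold enrichment on the y axis, for the whole locus (top) and the 3′ end of Dmpk (bottom). Boxes are pooled peaks, circles and squares the replicates (at the pooled midpoint), ticks the motif matches at the 5% score within the Dmpk peaks, and thick bars coding exons. The dashed line at the CTG run falls inside a peak with a pooled fold enrichment of 10.4.

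The other peak inside Dmpk and those upstream of the gene were stronger than the one over the CTG run. The peak downstream of Six5 was weaker. A peak inside Dmpk, with its mm10 summit 4801 bp before the end of the gene, had a pooled signal of 160 and relative signals of 1.82 and 2.26 in replicates 1 and 2. On mm9 the peak inside the body of Dmpk was in intron 9, with a fold enrichment of 18.9, and its best match scored 18.5 bits, just under the 1% score. Upstream, 4 peaks in or beside the neighbouring gene Rsph6a, which encodes a radial spoke protein of cilia, had signals of 186, 155, 97.0 and 114. On mm9 that side of the locus held 2 broad peaks, with fold enrichments of 22.4 and 14.8. The wider of these, at chr7:19653517-19655503, held 4 matches at the 5% score. Downstream, a single peak of signal 33.7 in Bhmg1 was 20397 bp past the start of Six5.

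Htt encodes huntingtin, a very large scaffold protein. Of its 4 peaks, the first, of pooled signal 24.7, was 10104 bp upstream of the gene in Grk4 (a G protein-coupled receptor kinase gene). Those inside the gene had signals of 48.8 and 72.3, and the last, in Msantd1, 3429 bp past the 3′ end, had 99.3. The upstream peak was the weakest of these and had relative signals of 0.226 in replicate 1 and 0.332 in replicate 2. It ranked 59546 in the list of replicate 1 and 40015 in that of replicate 2. Of the peaks in these windows it had the lowest IDR score, 660, where the others had 1000. Taking as many top entries from replicate 1 alone left it out, and the nearest summit to the start of Htt was then 44564 bp away. On mm9 the peak nearest to the glutamine run was 44234 bp downstream of it, in intron 8, with fold enrichments of 9.0 pooled, 10.03 in replicate 1 and 8.57 in replicate 2. Htt was the 1 member without an mm9 peak within 20 kb of its repeat. A further mm9 peak had its midpoint in coding exon 50, with a fold enrichment of 11.4.

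Atxn7 encodes a subunit of the SAGA histone-modifying complex. The RefSeq span is long, and its first base is far upstream of the start in the RefSeq promoter table. From the span the nearest summit was 10674 bp upstream, in Thoc7 (a gene of the mRNA export complex), with a signal of 95.2 and relative signals of 1.13 and 1.27. From the promoter table's start the nearest summit was 7163 bp downstream, with a signal of 116 and relative signals of 1.63 and 1.28. On mm9 that side of the gene had a peak in intron 3, 6381 bp downstream of the glutamine run. Its fold enrichment was 15.4 in the pooled list, 17.3 in replicate 1 and 15.5 in replicate 2. This peak held no match at the 5% score, and the best was 6.96 bits. The strongest Atxn7 peak on mm10, of signal 193, was 8561 bp before the 3′ end, with a relative signal of 2.44 in both replicates. Its mm9 counterpart by place in the gene, in intron 10, had a fold enrichment of 23.2 and again no match at the 5% score.

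Atxn2 encodes an RNA-binding protein of stress granules. The nearest summit to its start was 9408 bp downstream, inside the gene, with a signal of 52.1 and relative signals of 0.729 and 0.526. A second peak of signal 46.1 was 22566 bp from the start, and the strongest, of signal 121, was 54950 bp from it. Another peak was 309 bp past the 3′ end, beside Sh2b3 (an adaptor protein gene), with a signal of 74.6. This peak had relative signals of 1.15 and 0.756 in replicates 1 and 2. On mm9 the peak at that end was 4282 bp past the longest glutamine run, with fold enrichments of 11.3 pooled, 13.2 in replicate 1 and 10.3 in replicate 2. Measured from exon 1 instead, a position chosen after seeing the data, the nearest mm9 peak was 9371 bp downstream in intron 1, with a fold enrichment of 6.89.

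Atn1 encodes atrophin-1, a transcriptional corepressor, and had no conservative summit inside it. A strong peak was 3059 bp upstream of the start, nearest to Eno2 (neuronal enolase), with a signal of 164 and relative signals of 1.95 and 2.11. A weaker peak of signal 46.1 was 2039 bp past the 3′ end, in Grcc10, with relative signals of 0.633 and 0.496. The authors' larger optimal set added 2 weak summits inside the gene, of signal 9.43 and 18.4. Only the second was matched in a replicate list, in replicate 1 with a signal of 15.2. On mm9 a pooled peak with a fold enrichment of 4.78, at percentile 3.37 of its list, was 1434 bp downstream of the glutamine run. Neither replicate's mm9 list had a peak overlapping it, and the nearest replicate peaks were 6370 and 6283 bp downstream of the run. The peaks inside Atn1 in the optimal and mm9 pooled lists thus had at most 1 replicate entry matched. As many top entries from replicate 1 alone as the conservative set holds put a summit inside the gene. With replicate 2 alone the nearest summit was 2041 bp outside it.

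Jph3 encodes junctophilin 3, which ties the plasma membrane to the endoplasmic reticulum in neurons. It carried the strongest peak in any of the 7 windows, 21063 bp into the gene at chr8:121751467-121751741, with a pooled signal of 273 and rank 280 in the conservative set. Its relative signals were 3.30 in replicate 1 and 3.51 in replicate 2 (mean 3.41 ± 0.149, SD, n = 2). A second summit of signal 107 was 20184 bp from the start. On mm9 a single peak of 1889 bp in intron 1 had fold enrichments of 28.3 pooled, 36.7 in replicate 1 and 36.9 in replicate 2, at percentile 99.1 of the pooled list. Its midpoint was 2072 bp upstream of the short CTG run in exon 2. The exon that carries the human repeat is not in the annotated transcript, so no distance to it was measured. The summit nearest to the start on mm10, 3212 bp upstream, was weaker, with a signal of 47.2 and relative signals of 0.504 and 0.654.

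**Figure D2:**
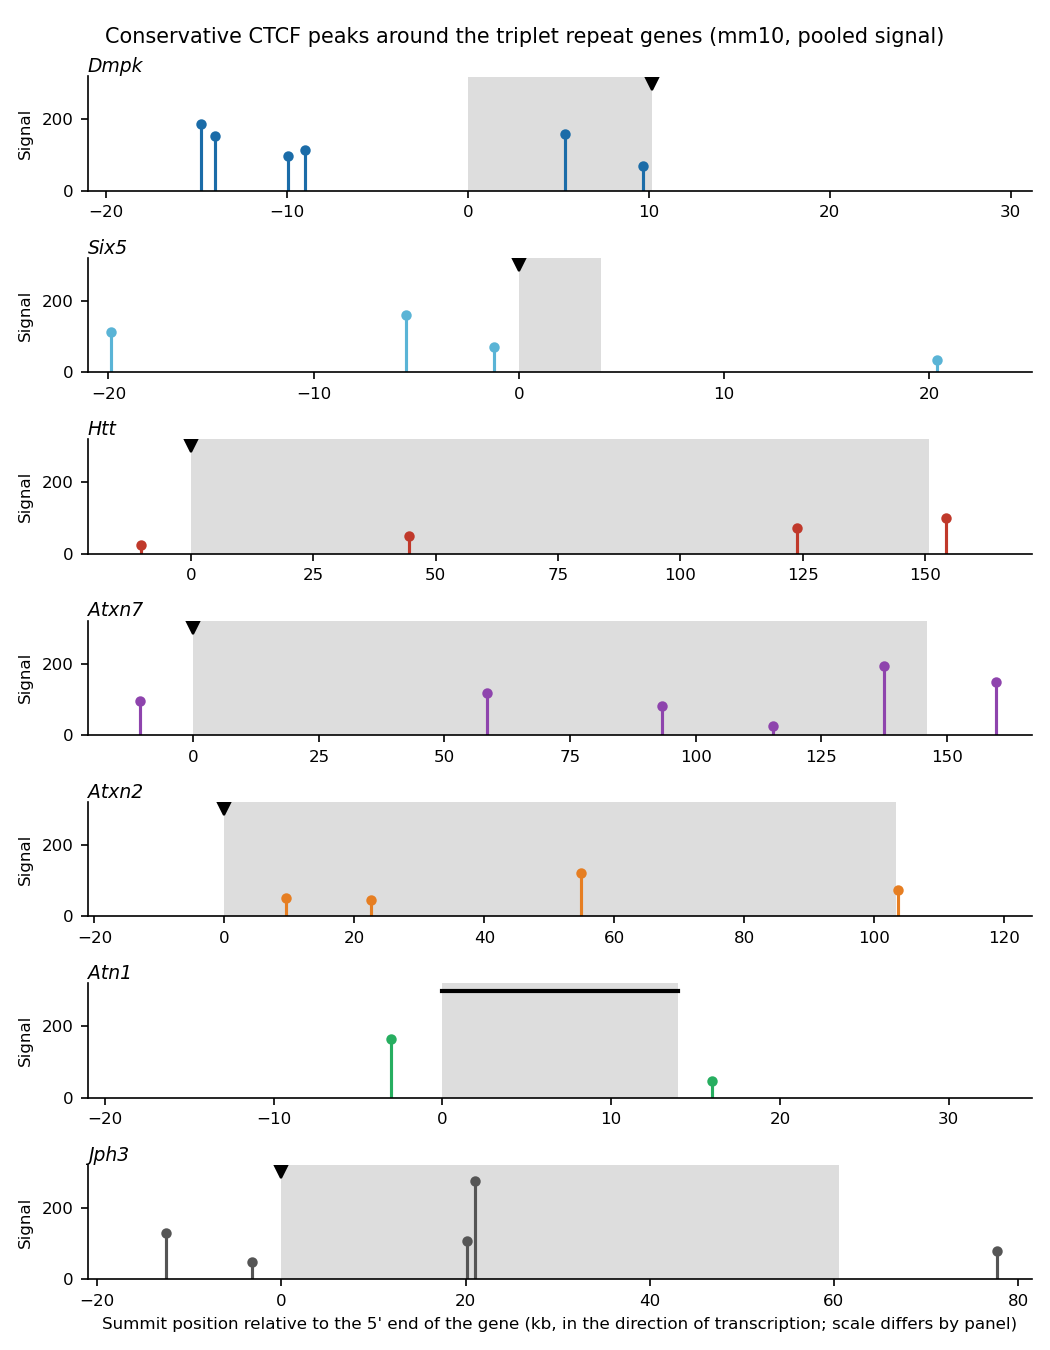
Conservative CTCF peaks of each gene on mm10, with the summit's position from the 5′ end (kb, scale differs by panel) on the x axis and the pooled signal on the y axis. Grey is the gene span, the triangle (a bar for Atn1) the gene end or span used as the position of the repeat. For Atxn7 that end is far upstream of the promoter table's start. The tallest peak, 273, is inside Jph3, and no panel has a peak within 1 kb of the 5′ end.

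None of the 7 had a conservative summit within 1000 bp of the 5′ end, where 9.61% of 20921 genes with a known strand had one. Within 5000 bp of the 5′ end the count was 3 of 7 (Six5, Atn1 and Jph3), against 28.6% of genes. At the 3′ end, 2 of 7 (Atxn2 and Dmpk) had a summit within 1000 bp, against 7.01%, and 4 of 7 (those and Htt and Atn1) within 5000 bp, against 28.7%. The replicate lists, which reach far weaker entries, also held no entry within 1 kb of the 5′ ends of Six5, Htt, Atxn7, Atxn2, Atn1 and Jph3. No share over all genes is given for these lists, and the 5′ end of Dmpk was not searched in them. For Atxn7 the end was that of the RefSeq span, far upstream of the promoter table's start. Only 2.14% of genes had a summit nearer to the 3′ end than Atxn2 and 3.59% nearer than Dmpk. In the mm9 pooled list, 6 of 7 had a peak midpoint within 20 kb of the repeat, and 6 of 7 within 20 kb of the 5′ end, the measure that 61.8% of 22208 coding genes met. Dmpk and Six5 share the same peak and the same repeat, so these are not 7 separate loci.

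**Figure D3:**
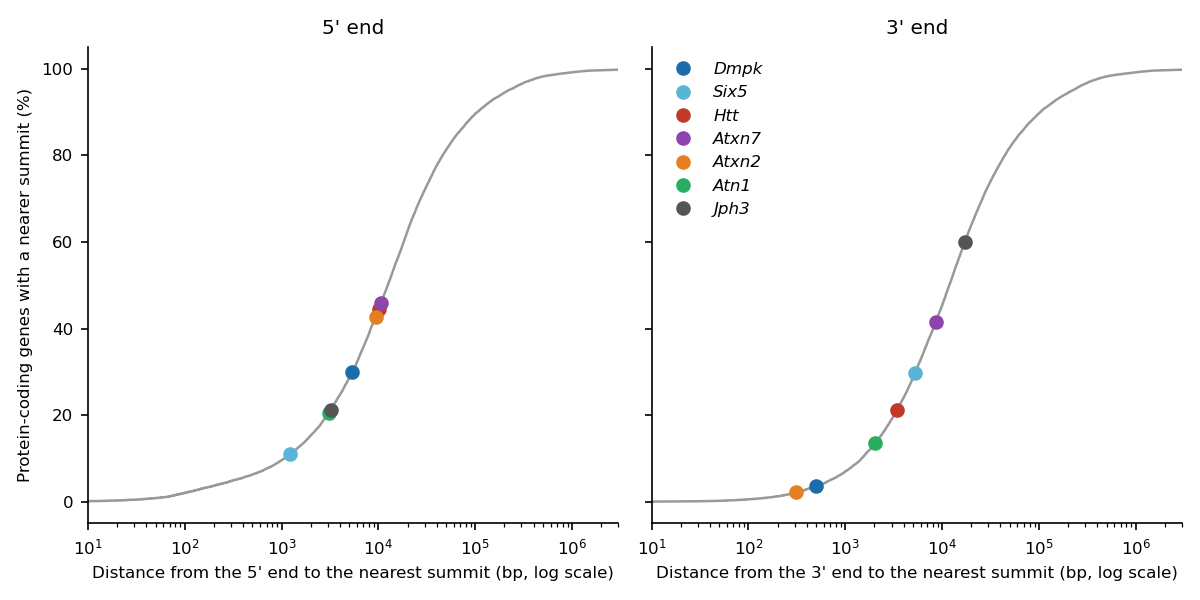
Distance from the 5′ end (left) and 3′ end (right) to the nearest conservative summit (bp, log scale), with the percent of coding genes that have a nearer summit on the y axis. The grey line is all 20921 genes with a known strand and the points are the 7 genes. Six5 is the nearest of the 7 at the 5′ end (1226 bp), and Atxn2 (309 bp) and Dmpk (503 bp) are the nearest at the 3′ end.

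The replicates gave like signals at these peaks, all of them from the conservative set. IDR kept that set for agreement of ranks between the same 2 replicates. Some agreement was therefore built in, here and over all conservative peaks. Of the 28 distinct peaks, 26 had relative signals within 1.5-fold of each other, and over 41382 conservative peaks matched in both replicates the share was 82.6%. The 2 beyond it were the peak 12483 bp upstream of Jph3, at 1.25 in replicate 1 and 1.99 in replicate 2, and the peak past the 3′ end of Atxn2. Neither replicate was the higher one throughout, with 13 peaks higher in replicate 1 and 15 in replicate 2.

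**Figure D4:**
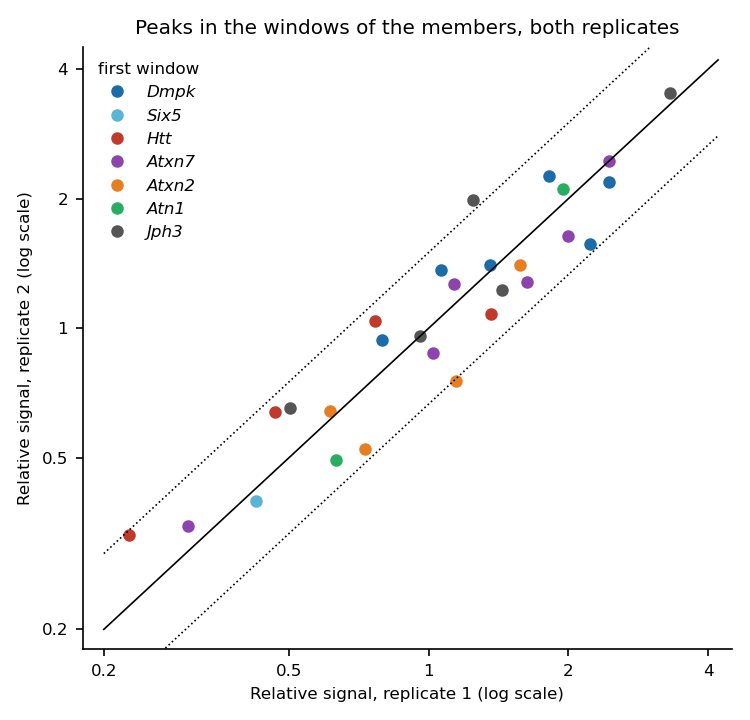
Relative signal of the 28 distinct peaks in replicate 1 (x axis) and replicate 2 (y axis), both on log scales, coloured by the first of the windows that holds the peak. The solid line marks equal values and the dotted lines a 1.5-fold difference, which 2 peaks exceed.

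In mm9 the windows held 24 distinct pooled peaks, 22 of them with a peak in both replicate lists. The same share over all pooled peaks is not given here, so the 22 are a count only. A motif match at the 1% score was inside 8 of the 24, and 44.9% of all 39349 pooled peaks had one, against 5.13% of flanking windows of the same length. At the 5% score the count was 20 of 24, and 90.9% over all peaks, against 22.9% of flanking windows. Of the peaks nearest to the longest run, counted by gene, 3 of 7 (Htt, Atxn2 and Jph3) held a match at the 1% score. At the 5% score 6 of 7 did, all but Atxn7. For Atxn2 that run was in exon 22, and the peak nearest to exon 1 scored 16.99 bits, under the 1% score. For Jph3 it was the short run in exon 2, and the peak nearest to the gene start scored 17.53 bits, also under it. The best match, whatever its score, was on the strand of the gene in 12 peaks and on the opposite strand in 12. Its median distance from the midpoint was 55 bp. The same 12 bases, CCAGAAGAGGGC, a stretch picked after the matches were seen, formed bases 2 to 13 of the best match in 7 of the 24 peaks. In 18.1% of all pooled peaks they did so too. The 7 peaks were in the windows of Jph3, Dmpk, Six5, Htt and Atxn2. In the windows of Dmpk and Six5 they were in neighbouring genes, and some of those of Jph3 were outside the gene.

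Promoter sequences (RefSeq, GRCm38.p6, 250 bases before to 50 after the start) were given for 6 of the 7 genes, with 2 starts for Atxn2. None of these 7 windows held a match at the 1% score on either strand, and 0.901% of 32851 promoters of that length did. The promoters differed in CpG content. The observed-to-expected CpG ratio was 1.21 in Jph3, 1.05 at the first start of Atxn2 and 0.854 in Htt, against a median of 0.384 over all promoters. It was 0.606 in Atxn7, 0.559 in Six5, 0.2525 at the second start of Atxn2 and 0.0863 in Dmpk, the lowest of these genes.

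A further 37 genes have human counterparts that carry disease-causing short repeat expansions. Of these, 31 (83.8%) had a conservative summit in the same window, against 75.9% of all coding genes. Inside the span 21 (56.8%) had one, against 42.3%. These shares again take no account of gene length. Genes without a peak in the window included Aff2, Fmr1 and Sox3, on X, and Zic2. The summits nearest to a gene start were at Rfc1 (50 bp, signal 69.5), Dip2b (893 bp, 70.4), Cacna1a (961 bp, 44.2), Nop56 (1520 bp, 131) and Atxn1 (1793 bp, 36.4). The densest windows were those of Cstb (9.53 peaks per 100 kb), Foxl2 (9.41) and Hoxa13 (7.14), all below Dmpk. The median of this list was 2.06 peaks per 100 kb, and that of all coding genes was 2.44.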

How the data were processed

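The peak lists are the authors' deposited files. On mm10 the deposited signal of each peak (caller's scale, not stated) was used from the conservative and optimal IDR sets and from the 300000-entry list of each replicate. On mm9 the deposited fold enrichment (a ratio) of the pooled and replicate lists was used. Aligner, peak caller and IDR version were not given in the sources used here. Because the lists hold no read counts, depth is unknown. The labels call the libraries biological replicates.

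Summits within 100 bp were matched to replicate entries. Gene spans came from RefSeq (GRCm38.p6), and exons and sequence from mm9 with GENCODE vM1. No coordinates were converted between builds. With no exons on mm10, a gene end stood for the human repeat (3′ for Dmpk, the whole span for Atn1, 5′ for the others). For Atxn7 this was the start of the RefSeq span, far upstream of the promoter table's start, so it is a poor stand-in there. The 17 bp motif was learned from 5000 strong peaks of odd-numbered chromosomes. Runs tied in length were resolved by the 5′-most. Members, gene lists and named genes (all members, neighbours at their peaks, and other repeat genes by nearest start, density or lack of a peak) were chosen with earlier results of these data known. Some genes that the naming rule takes are not reported here. The motif search and window counts were tested on simulated data. Tools were Python 3.11.15, NumPy 2.4.6, pandas 2.3.3 and pysam 0.24.0. Alternatives covered flanks, peak sets, each replicate alone, matching distance and motif score.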

Additional observations from a re-analysis of the deposited data

How the results depend on the processing

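The number of genes with a conservative peak in the window was 7 under each alternative run: flanks of 10 and 50 kb, the optimal set, the peaks at or above the median signal, and each replicate alone. Inside the span the count was 4 with the peaks at or above the median signal and 6 with the optimal set, and 5 to 6 with a replicate left out. The count with an mm9 peak near the repeat was 5 to 7 over its 6 alternatives. The motif count in the nearest peaks depended on the score: 1 gene at the score that 0.1% of flanks reach, 6 at the 5% score, and 2 within 100 bp of the midpoint, against 3. It was not recounted with Atxn2 measured from exon 1, where the nearest peak scored under the 1% score. Of 33 alternative distances per gene, 10 moved by over 100 bp, among them Atn1 (0 bp in the optimal set and without replicate 2), and of 42 alternative peak counts 12 moved by over 1.5 times. Relative signals moved by less than the SD with matching within 50 or 200 bp (at 50 bp no value was had for Jph3), and a replicate left out cannot move a mean of 2 beyond its SD. Percentile ranks, on another scale, ran from 5.57 for Htt to 59.4 for Atxn7, the same genes that were lowest and highest in relative signal. For Atxn7 both values are those of the peak nearest to the start of the RefSeq span. No paired analysis was possible because there is 1 group. Read depth, unknown here, limits how weak a peak could be seen.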
